A study of Mus musculus with 52 samples.

Results

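The regions described here were 1780 sites on mouse autosomes at which SmcHD1 was called in wild-type (wt) fibroblasts without CTCF and without cohesin. They were chosen by the peak calls themselves, from the 6993 peaks of the SmcHD1 wt list. Of these, 3201 lay on chromosomes 1 to 19 without chromosome 5 and without a span of chromosome 1 between 85 and 86 Mb. A peak was kept where it shared not even 1 bp with a CTCF wt peak, a peak of the cohesin subunit Rad21 in wt, or a peak of the SmcHD1 antibody in SmcHD1 mutant cells. Of the rest, 1277 met a CTCF or Rad21 wt peak and 144 met a peak of the mutant list. The absence of CTCF and Rad21 in wt is therefore a property of the choice and not a result.

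The cells were clonal female mouse embryonic fibroblasts (MEFs) of an F2 cross between Mus musculus domesticus FVB and Mus musculus castaneus. Per the paper, each X was wholly of 1 strain, with the inactive X from castaneus in wt and mut. Autosomes were mosaic for strain through recombination, and the paper also reports differences in chromosome copy number. Autosomal strain and copy number can therefore differ between clones, and neither was examined here. The wt lists came from clone Wt2A1 and the mut lists from clone Mut5A6, derived from an embryo homozygous for the MommeD1 null allele of SmcHD1, so that each of these genotypes is 1 clone. The somatic knockouts (somKO), labelled CRISPR KO, were clones A3-3 and D4, made in another wt line than Wt2A1, so that loss of SmcHD1 and a change of clone cannot be told apart. Each of the 8 lists was called on the merged reads of its replicates (24 libraries in all), and the files hold no counts: replicate error and depth are not known for any value below. Shares carry 95% Wilson intervals, which cover counting error only.

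SmcHD1 is a non-canonical member of the SMC protein family, best known for its role in silencing on the inactive X chromosome, at imprinted genes and at repeat arrays. CTCF is a zinc finger protein that binds a defined DNA motif, and cohesin is a ring complex that extrudes chromatin loops and stalls at CTCF. Sites at which SmcHD1 is found apart from both are therefore a way to look at where it sits without the loop machinery.

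The sites fell into a large group in repeated DNA and a smaller one in single-copy DNA, and the sequences below show an example of each kind. A near-identical copy was an alignment elsewhere in the genome that covered at least 80% of the peak at 90% identity or more. Of the 1780 peaks, 1286 had such a copy, a share of 72.2% (70.1 to 74.3). Of windows as wide as the median peak, 307 bp, taken once per Mb on the same chromosomes, 14.3% had one. For autosomal SmcHD1 peaks at CTCF or Rad21 the share was 23.7% (21.5 to 26.1), and for SmcHD1 peaks on X without CTCF or Rad21 it was 87.0% (85.2 to 88.6). In this respect the autosomal peaks without CTCF or cohesin stood closer to the peaks of X than to the other autosomal peaks.

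Stretches of the repeated kind are shown first, since they come from the largest cluster and the highest score, all from the plus strand of GRCm38 as given by RefSeq. The first lies in the highest-scoring peak of the largest cluster, between Hrh1 and Atg7, at chr6:114622429-114622628, with CG dinucleotides in capitals. The other is 1 repeat length of 234 bp in the peak with the highest score of all, at the predicted gene Gm10715, chr9:3037664-3037897, with CG in capitals.
Between Hrh1 and Atg7: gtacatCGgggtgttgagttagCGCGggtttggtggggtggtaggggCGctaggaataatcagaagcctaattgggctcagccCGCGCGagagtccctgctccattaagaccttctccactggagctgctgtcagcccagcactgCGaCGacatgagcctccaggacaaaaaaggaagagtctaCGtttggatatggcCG
Gm10715: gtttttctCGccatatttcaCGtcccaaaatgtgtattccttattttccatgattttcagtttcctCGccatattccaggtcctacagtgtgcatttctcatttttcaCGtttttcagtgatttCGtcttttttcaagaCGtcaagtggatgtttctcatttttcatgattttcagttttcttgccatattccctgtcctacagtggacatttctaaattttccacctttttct

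Stretches of the single-copy kind come from peaks at genes that recur below, all clear of annotated untranslated exons. H13 and Mcts2 share a peak in an imprinted locus, shown at chr2:152686786-152686985, and the imprinted gene Mest at chr6:30737789-30737988; capitals mark TGCCGC, the hexamer recognised by the imprint-protecting zinc finger protein ZFP57, on either strand. The Glra1 promoter, chr11:55607220-55607419, and an intron of Bcl11a, chr11:24081930-24082129, gained CTCF and Rad21 peaks in both genotypes without SmcHD1, and Hoxc9, chr15:102982183-102982382, holds the highest-scoring peak of the Hoxc genes. In these, capitals mark a core of the CTCF motif on either strand, which was taken as AGGGGGC, as its variant AGGTGGC or as its other variant AGATGGC.
H13 and Mcts2: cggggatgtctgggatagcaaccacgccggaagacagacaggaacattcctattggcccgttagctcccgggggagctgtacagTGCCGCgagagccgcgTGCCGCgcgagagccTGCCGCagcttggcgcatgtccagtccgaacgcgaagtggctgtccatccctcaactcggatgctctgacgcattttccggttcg
Mest: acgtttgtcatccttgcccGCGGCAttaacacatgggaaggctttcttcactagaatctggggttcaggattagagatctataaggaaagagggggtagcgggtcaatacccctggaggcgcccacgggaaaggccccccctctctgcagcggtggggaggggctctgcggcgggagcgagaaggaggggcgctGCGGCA
Glra1: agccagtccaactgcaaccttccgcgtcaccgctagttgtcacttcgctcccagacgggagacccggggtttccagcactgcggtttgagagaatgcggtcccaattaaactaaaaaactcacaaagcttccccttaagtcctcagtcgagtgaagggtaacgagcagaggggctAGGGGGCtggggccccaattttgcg
Bcl11a: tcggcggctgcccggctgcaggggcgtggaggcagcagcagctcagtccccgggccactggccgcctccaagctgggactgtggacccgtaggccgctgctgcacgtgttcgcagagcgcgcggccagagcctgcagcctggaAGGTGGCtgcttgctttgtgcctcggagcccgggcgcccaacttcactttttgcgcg
Hoxc9: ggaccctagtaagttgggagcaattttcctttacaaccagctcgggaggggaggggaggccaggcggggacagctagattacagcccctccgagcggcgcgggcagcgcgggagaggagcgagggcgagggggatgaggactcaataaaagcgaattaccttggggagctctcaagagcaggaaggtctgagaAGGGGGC

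The deposited score, read as a transformed q-value of the peak call, ranks peaks within a list. Its median was 46 over the 1780 peaks, with quartiles of 29 and 83, against 46 at CTCF or Rad21 sites and 42 on X. The lowest score was 13, held by 19 peaks, and 812 peaks reached 50. Scores ran up to 12078, whereas the highest score among the peaks at CTCF or Rad21 was 1262. The median distance to the nearest wt CTCF or Rad21 peak was 11.7 kb, and 947 peaks had none within 10 kb. Just inside the rule, 20 peaks had a wt CTCF or Rad21 peak within 100 bp, and just outside it, 33 peaks met one by no more than 100 bp.

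Chromosomes differed widely in the number of these peaks. Chromosome 13 held 250, or 2.08 per Mb, followed by chromosome 4 with 283 (1.81 per Mb), chromosome 8 with 204 (1.58 per Mb) and chromosome 6 with 171 (1.14 per Mb). Chromosome 3 had the lowest density, with 21 peaks (0.131 per Mb). Much of this came from a few places, since 32 of 2320 windows of 1 Mb held 945 peaks, or 53.1% of all, and 520 windows held at least 1. On chromosome 13, 232 of the 250 peaks had a near-identical copy, and on chromosome 12, 109 of 117. Single-copy peaks were most numerous on chromosomes 4 (89), 11 (73) and 17 (60).

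**Figure D1:**
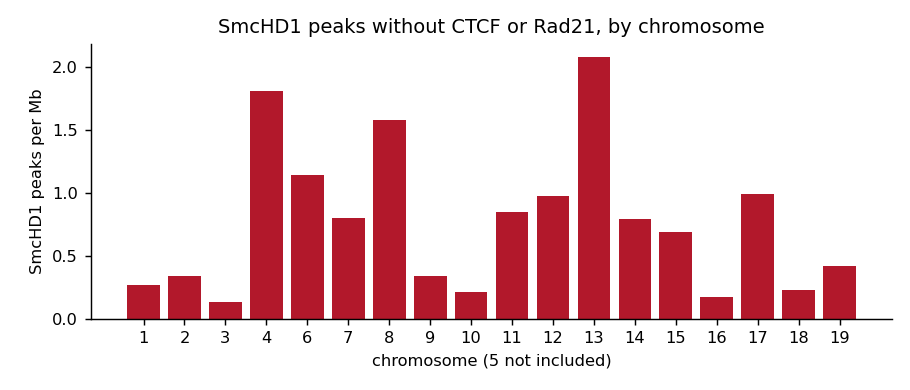
Autosomal SmcHD1 peaks without CTCF or Rad21 in peaks per Mb (vertical axis) on each chromosome (horizontal axis), with chromosome 5 not included. Bars are counts from 1 merged list and have no replicate error. Chromosome 13 stands highest at 2.08 per Mb and chromosome 3 lowest at 0.131.

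By position, the peaks lay outside genes slightly more often than windows of the genome did, and near gene starts more often. The midpoint was in no annotated gene for 998 of 1780, a share of 56.1% (53.8 to 58.4), against 52.2% of all 307 bp windows. It was within 1 kb of a gene start for 285, a share of 16.0% (14.4 to 17.8), against 3.39% of windows. At CTCF or Rad21 sites, 44.7% of autosomal SmcHD1 peaks (42.0 to 47.5) were at a gene start, and on X, without CTCF or Rad21, 8.32% (7.04 to 9.81). Of the 285 autosomal peaks at a gene start, 114 were near the start of a protein-coding gene (6.40% of the 1780, against 1.16% of windows). The others were near the starts of genes of other kinds. Of the 285, 38 lay in the 5S ribosomal RNA gene array and 16 in the non-coding gene Snhg14, both described below. In no protein-coding gene were 72.6% of the 1780 (70.5 to 74.7), against 59.4% of windows.

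The kinds of gene differed with copy number. Among the 494 single-copy peaks, 119 were at a gene start (24.1%, 20.5 to 28.1) and 84 at that of a protein-coding gene (17.0%, 13.9 to 20.6). Among the 1286 with a copy, 166 were at a gene start (12.9%, 11.2 to 14.9) and 30 at that of a protein-coding gene (2.33%, 1.64 to 3.31). Their median scores were nearly equal, at 45 and 47.

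**Figure D2:**
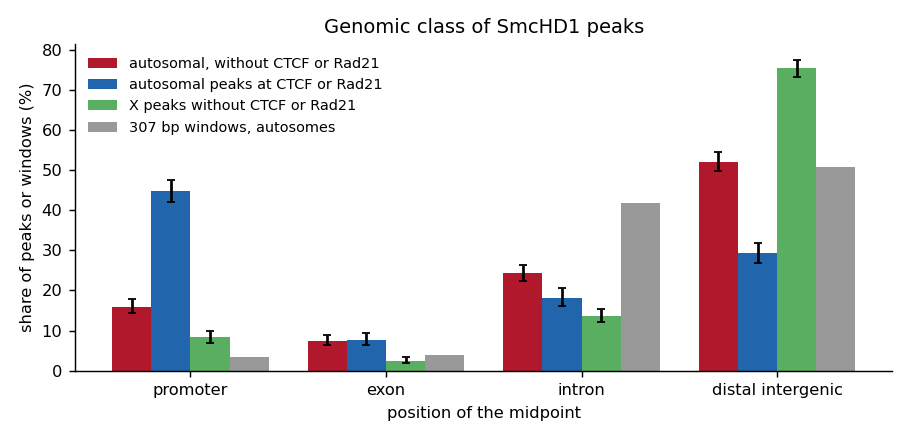
Share of peaks or windows in percent (vertical axis) by the position of the midpoint (horizontal axis), for autosomal SmcHD1 peaks without CTCF or Rad21, autosomal SmcHD1 peaks at CTCF or Rad21, X peaks without CTCF or Rad21, and all 307 bp autosomal windows. Error bars are 95% Wilson intervals for counting error. Autosomal peaks without CTCF or Rad21 were at promoters in 16.0% of cases, between the 8.32% of X and the 44.7% of peaks at CTCF or Rad21.

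In base composition, too, the peaks lay between those of X and those at CTCF or Rad21. In the central 307 bp, the median GC content was 48.2% and the median ratio of observed to expected CpG was 0.228, against 62.2% and 0.665 at CTCF or Rad21 sites, 43.6% and 0.156 on X, and 41.7% and 0.151 over all windows. Repeat-masked letters made up 50% or more of that stretch in 43.9% of peaks, in 5.48% of those at CTCF or Rad21, in 48.4% on X and in 25.9% of windows. A core of the CTCF motif was found in 16.4% of the peaks, in 28.3% of those at CTCF or Rad21 and in 12.7% of windows. The GC box GGGCGG, a common promoter element, was present in 11.8%, 41.7% and 2.97%, and TGCCGC in 8.15%, 18.8% and 1.89%. A match of letters is a description of the sequence and does not show that a factor was bound.

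The peaks were often grouped. With gaps of at most 10 kb and at least 3 peaks, 132 clusters held 837 of them, a share of 47.0% (44.7 to 49.3). By the same measure 15.3% (13.5 to 17.4) of peaks at CTCF or Rad21 and 65.8% (63.4 to 68.1) of the X peaks were clustered. The median cluster had 4 peaks over 9.96 kb, and 17 clusters had 10 or more, with 326 peaks between them. The 6 largest held 196 peaks, or 11.0% of all.

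The largest cluster was a repeat array with no annotated gene. It lay between Hrh1, which encodes a histamine receptor, and Atg7, which encodes an enzyme of autophagy, and comprised 75 peaks over 145 kb (chr6:114492959-114637466). Its median score was 220 and its highest 847. All 75 peaks had a copy within 1 Mb, and the sequence of the cluster matched itself best at a shift of 2424 bases (30.1% of letters identical, against a median of 25.6% over other shifts). Another 18 SmcHD1 wt peaks in the span met CTCF or Rad21, and the SmcHD1 mut list had 1 peak there.

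The same array gained CTCF peaks in cells without SmcHD1. Its CTCF peaks numbered 21 in mut and 33 in somKO, against 10 in wt, and its Rad21 peaks 16 and 21, against 12. Of its 75 SmcHD1 peaks without CTCF or Rad21 in wt, 37 met at least 1 CTCF or Rad21 peak in mut or somKO, where 9.95% of all copied peaks did. CTCF in mut was at 15 of the 75, against 2.02% of all copied peaks and 0.309% of windows that lacked wt CTCF, wt Rad21 and SmcHD1 mut peaks. All 75 lie in copied DNA, and whether reads were placed there alike in all lists was not tested.

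The cluster with the next most peaks was the 5S ribosomal RNA gene array on chromosome 8 (chr8:123537381-123624375), which supplies the smallest RNA of the large ribosomal subunit. It had 39 peaks, with scores from 40 to 1055 and a median of 406. The annotation lists 41 5S genes there, all on the minus strand and spaced by a median of 1703 bp, and 35 of them had a peak in the gene or within 1 kb of its start, as did 661 of all 47940 annotated genes (1.38%). None of the 112 annotated 5S genes elsewhere on these autosomes had such a peak. The widest peak of the array, chr8:123541665-123548168, covered n-R5s102, n-R5s103, n-R5s104 and n-R5s105, and had the highest score of the cluster. Unlike the array near Hrh1, it had few CTCF peaks in any genotype, 1 in wt, none in mut and 1 in somKO, and its Rad21 peaks were 3, 1 and 3. The SmcHD1 mut list had 2 peaks in the span.

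A short tandem repeat at the start of the assembled chromosome 9 held the highest scores. The 14 peaks there (chr9:3002045-3038189) had a median score of 989.5, and 5 of the 10 highest scores of all 1780 peaks were among them, at the predicted genes Gm10715 (12078), Gm10722 (9874) and Gm10717 (5343, 2895 and 2479). The sequence repeated at 234 bp, with 70.8% of letters identical at that shift against a median of 31.4%. This is the repeat length of mouse major satellite, the DNA of the blocks beside the centromeres. In this span the SmcHD1 mut list had 9 peaks, out of 244 in the whole list, so that the antibody also gave signal there without SmcHD1.

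Each of the 3 chromosomes with the highest density had a stretch of a few Mb with many peaks. The densest 3 Mb of chromosome 13, from 64 to 67 Mb, held 179 peaks (59.7 per Mb), of which 113 were in no gene. Of the 27 protein-coding genes there, 5 had a peak (2410141K09Rik, Cntnap3, Gm10139, Gm10324 and Gm10772). The non-coding gene Gm26754 held 18 peaks, and the overlapping Gm48165, a pseudogene, and Gm48166, a non-coding gene, 16 each. The densest 3 Mb of chromosome 8, from 18 to 21 Mb, held 92 peaks (30.7 per Mb), 66 of them in no gene, and the non-coding gene Gm26804 held 18.

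The densest 3 Mb of chromosome 4, from 145 to 148 Mb, held 111 peaks (37.0 per Mb), and here genes were met more often, with 23 peaks in no gene. Of its 31 protein-coding genes, 18 are Zfp genes, which encode zinc finger proteins of a class known for the repression of transposable elements. A peak was found in 16 of the 31, among them Zfp991, Zfp988, Zfp992 and Rex2. The long non-coding RNA genes C230088H06Rik, Gm26624 and Gm26573, which overlap many of these, held 43, 39 and 28 peaks. CTCF in somKO was gained at 5 of the 179 peaks of the chromosome 13 stretch, at 1 of the 111 on chromosome 4 and at 3 of the 92 on chromosome 8, where 0.486% of windows over all these autosomes had such a peak. CTCF in mut was gained at 1 peak of these stretches, on chromosome 8, against 0.309% of windows. Over all 1780 peaks the shares were 5.67% in somKO and 2.92% in mut, and each stretch was below them.

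Not every cluster was repeated DNA. The Hoxc cluster, with 20 peaks in 45.4 kb (chr15:102965651-103011065), had no peak with a near-identical copy. The same held for 19 peaks at chr17:27288205-27333923, near the non-coding genes Gm49793 and Gm10505, for 14 peaks next to it at chr17:27228183-27265013, and for 10 peaks at chr7:38176015-38197028. The cluster at Sfi1, a centrosome gene, and the pseudogene Pisd-ps1 was mixed, with 9 of 26 peaks copied (chr11:3101087-3177926). A cluster of 15 peaks at chr1:84953765-84990260 ended just short of the span left out on chromosome 1, and all 15 had a copy.

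**Figure D3:**
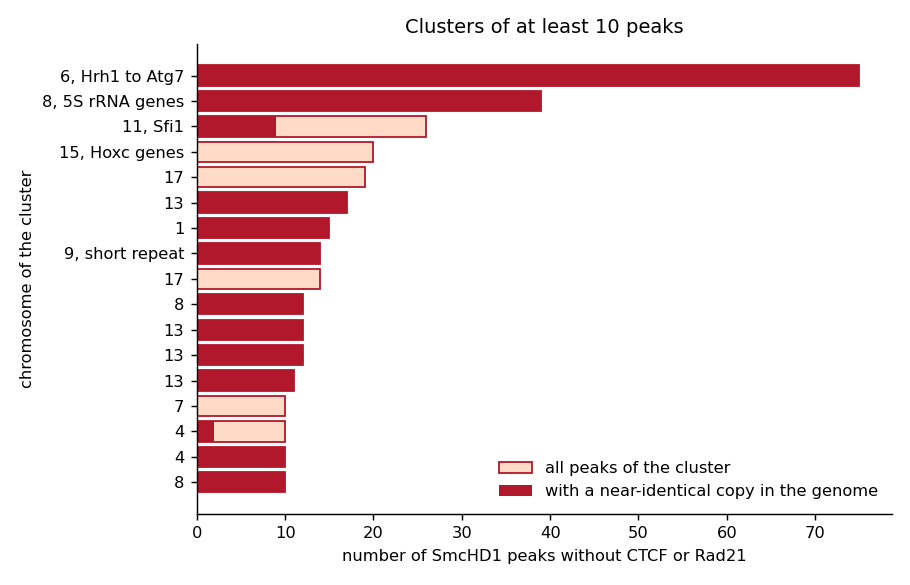
Number of SmcHD1 peaks without CTCF or Rad21 (horizontal axis) in each of the 17 clusters of at least 10 peaks (vertical axis, by chromosome), with dark bars for peaks that have a near-identical copy in the genome. All 75 peaks between Hrh1 and Atg7 and all 39 of the 5S array had a copy, whereas none of the 20 Hoxc peaks did.

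Hox genes, which set position along the body axis, were met in 1 of their 4 clusters. Over the whole Hoxc span, 116 kb, there were 23 peaks, and 8 of the 9 Hoxc genes had one in the gene or within 1 kb of its start. The Hoxa, Hoxb and Hoxd spans had none. They had more wt CTCF peaks (9, 19 and 9, against 4 in Hoxc), which the choice of peaks excludes, and SmcHD1 peaks at CTCF or Rad21 numbered 3 in Hoxb, 1 in Hoxd, none in Hoxa and 5 in Hoxc. The highest Hoxc score was 151, for a peak of 1189 bp in Hoxc9 (chr15:102981607-102982795), followed by 107 in Hoxc8 and 90 in Hoxc6. The gene model of Hoxc5 spans its neighbours and so held 18 of these peaks. The Hoxc span had 13 Rad21 peaks in the mut list, against 5 in wt and 7 in somKO, and 6 CTCF peaks, against 4 and 7. Of the 23 SmcHD1 peaks, 5 met a CTCF or Rad21 peak in mut or somKO, where 28.7% of all single-copy peaks did.

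At Hoxc10 a gained peak was a wt site called wider. Peaks at chr15:102965651-102966083 and chr15:102966901-102967383 met 1 CTCF mut peak with a score of 9808, higher than 98.4% of that list, and a Rad21 mut peak with a score of 2592. A wt CTCF peak lay 0.185 kb from the first and 0.177 kb from the other, and the CTCF mut peak overlapped a wt CTCF peak. The Rad21 mut peak met no wt Rad21 peak, and the nearest lay 4.61 and 3.31 kb from the SmcHD1 peaks.

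Imprinted genes, which are expressed from 1 parental allele, were met at 5 single-copy peaks. These counted for 8 of 58 imprinted genes (13.8%), against 1.38% of all 47940 annotated genes. The highest score was 346 at Mcts2, a retrogene in an intron of H13 (chr2:152686784-152687273). The others were in Gnas, within 1 kb of the start of its antisense transcript Nespas (164, chr2:174295885-174296166), in Mest (142, chr6:30737608-30738640), at Zrsr1 in an intron of Commd1 (72, chr11:22972084-22972565) and at Klf14 (69, chr6:30957966-30958173). TGCCGC occurred 9 times in the Mest peak, 5 times in the Gnas peak and 3 times in the Mcts2 peak, and not in those at Zrsr1 and Klf14. Autosomal SmcHD1 peaks at CTCF or Rad21 were found at 10 of the 58 genes, a share of 17.2%.

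What happened to CTCF and Rad21 differed between these loci. At Mest, the mut lists had a CTCF peak with a score of 383 and a Rad21 peak with a score of 2191, higher than 92.5% of the Rad21 mut list, and the somKO lists had neither, while the nearest wt site was 43.7 kb away. At Gnas, the somKO lists had CTCF (36) and Rad21 (52) and the mut lists had neither, and a wt peak lay 0.523 kb away. At Zrsr1, Rad21 appeared in mut (39) and in somKO (47) without CTCF. At Mcts2 and Klf14 neither appeared.

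A further imprinted transcript, Snhg14, the long non-coding host of snoRNA genes in the Prader-Willi and Angelman region, was not on that list and was chosen after its values were seen. It held 16 peaks with scores from 14 to 128, all within 1 kb of the start of 1 of its 208 annotated snoRNA genes, and 6 of them at Snord116 genes. For each, 49 near-identical copies were found within 1 Mb, the most that the search could return on 1 chromosome, so that the full number is not known. The 5 peaks above had no copy. None of the 16 met a CTCF or Rad21 peak in mut or somKO, which is a small number to set beside the 9.95% of all copied peaks that did.

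Counts for the other gene lists are to be read against the 1.38% of all annotated genes. Zfp genes had a peak in 28 of 389 (7.20%), with the highest scores at Zfp282 (486) and Zfp697 (289), which are single-copy, and at Zfp640 (254), annotated as a pseudogene, and Zfp991 (161), which have copies. Major histocompatibility genes had one in 5 of 45 (11.1%), with scores of 177 at the promoter of H2-D1 and 107 at H2-Q4, both of which encode class I molecules. Small nuclear, small nucleolar, 5S and related small RNA genes had one in 45 of 324 (13.9%), mostly in the 5S array. In that array 35 of 41 5S genes had a peak, and none of the 112 5S genes elsewhere did. The 13.9% therefore mostly reflects 1 array and is not a share for small RNA genes in general. Sensory and antigen receptor families were below the 1.38% of all annotated genes. A peak was found at 3 of 1396 olfactory receptor genes (0.215%) and 2 of 318 vomeronasal receptor genes (0.629%). Antigen receptor segments had one in 5 of 647 (0.773%, the same as for peaks at CTCF or Rad21). Their highest scores were at Olfr707 (227), Vmn2r24 (101) and Ighv8-11 (47). Serpins (Serpinb1c, 45) and killer lectin-like receptors (Klrb1a, 48) had 1 peak each.

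Several lists had no peak, among them the 58 clustered protocadherin genes, 82 defensins, 70 replication-dependent histone genes, 79 ribosomal protein genes, 115 keratin genes, 69 secretoglobins and 118 cytochrome P450 genes. The same count was found for 12 Pramel and 4 Speer genes, 28 fibroblast collagen and matrix genes, 28 AP-1 and Myc growth-response genes and 23 actin cytoskeleton genes. Since 1.84% of all protein-coding genes had a peak, lists of these sizes would hold few or none at that share, and their zeros are near the background. For the clustered protocadherins, the paper reports SmcHD1 enrichment over their locus, which it names as a known target. Peaks at CTCF or Rad21 were found at 0 of the 58 genes as well. Both counts cover called peaks in a gene or within 1 kb of its start, and do not show that SmcHD1 is absent from the locus. Of 17 SMC and cohesin-related genes, Lrif1, which encodes a partner of SmcHD1, had a promoter peak with a score of 24.

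**Figure D4:**
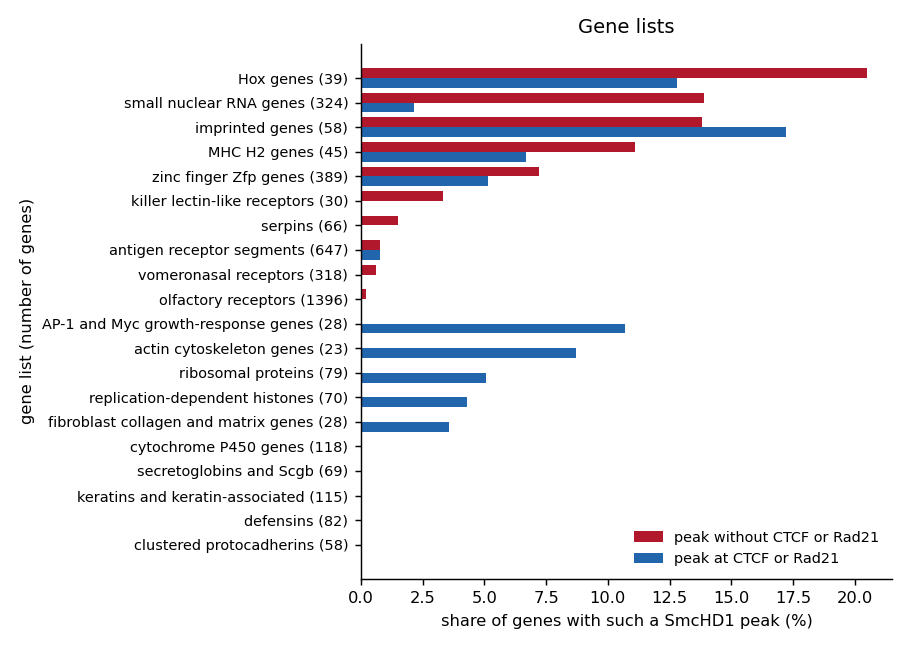
Share of genes in percent (horizontal axis) with an autosomal SmcHD1 peak in the gene or within 1 kb of its start, for each list of at least 20 genes (vertical axis, number of genes in brackets). Bars compare peaks without CTCF or Rad21 with peaks at CTCF or Rad21. Hox genes reached 20.5% and imprinted genes 13.8% for peaks without CTCF or Rad21. The small RNA list reached 13.9% for these peaks, mostly from the 5S array. The collagen, growth-response, actin, histone and ribosomal protein lists were at 0 for them.

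Several single-copy peaks were among those with the highest scores. An intron of Sos2, an activator of Ras, held a narrow peak of 234 bp with a score of 2684 and no CG at all (chr12:69654073-69654306). The promoter of the phosphatase gene Dusp28 had 1851 (chr1:92906853-92907671), and a peak 15.0 kb from the cyclin gene Ccnc had 1244. Promoters of Iqsec3 (1104), a regulator of inhibitory synapses, Glra1 (1030), a glycine receptor subunit, and Cacng2 (910), an auxiliary subunit of AMPA receptors, followed.

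The last comparison asked whether CTCF or Rad21 appeared at these peaks where SmcHD1 was missing. Since the peaks were selected to have neither in wt, any peak there in mut or somKO counts as a gain, and the yardstick is the share of all 307 bp windows that also lacked wt CTCF, wt Rad21 and SmcHD1 mut peaks. At least 1 of the 4 lists had a peak at 270 of 1780 (15.2%, 13.6 to 16.9), against 4.10% (3.21 to 5.21) of the X peaks. The share of windows was computed for each list alone and not for the 4 together. CTCF appeared at 52 in mut (2.92%, 2.23 to 3.81), against 0.309% of windows, and at 101 in somKO (5.67%, 4.69 to 6.85), against 0.486%. Rad21 appeared at 101 in mut (5.67%, 4.69 to 6.85), against 0.836% of windows, and at 131 in somKO (7.36%, 6.24 to 8.67), against 1.64%. On X, the shares at SmcHD1 peaks without CTCF or Rad21 were 0.650%, 1.89%, 1.24% and 2.41% in the same order, and all 4 intervals were below those of the autosomal peaks. Peaks were called on reads of both alleles, so a site bound in wt on the active X alone was left out of this X set. The paper reports that most such sites regained CTCF and Rad21 on the inactive X without SmcHD1. The X shares here cannot show that gain. More of the X peaks had a copy (87.0%, against 72.2%). For autosomal peaks with a copy the shares were 2.02%, 5.52%, 2.26% and 3.19%. Their intervals were above those of X for CTCF and overlapped them for Rad21. The array between Hrh1 and Atg7 held 15 of the 26 copied peaks with CTCF in mut and 19 of the 71 in somKO. Shares of copied peaks without that array were not computed, so the CTCF contrast with X may rest on it, above all in mut. No share of windows was computed for X. Without the array between Hrh1 and Atg7, the shares of all autosomal peaks, copied or not, were 2.17%, 4.81%, 5.22% and 6.98%. The somKO lists are longer than those of wt, and when they were reduced to their highest scores at the length of the wt lists (60204 CTCF and 67655 Rad21 peaks), the somKO shares were 2.81% and 3.99%. The share of windows was not recomputed for the shortened lists. It can be no higher than the 0.486% and 1.64% of the full lists.

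Some of these gains were wt sites whose call had widened into the SmcHD1 peak. Counting a gained peak as new where it met no wt peak of its own antibody, CTCF was new at 41 peaks in mut (2.30%, against 0.177% of windows) and at 75 in somKO (4.21%, against 0.280%), and Rad21 at 89 in mut (5.00%, against 0.494%) and at 111 in somKO (6.24%, against 0.832%). Some SmcHD1 peaks are wider than the windows, and in the central 307 bp new peaks were found at 1.91%, 3.60%, 4.83% and 5.90%. In each genotype, the 6 SmcHD1 peaks with the highest gained CTCF scores all met calls of the widened kind. Some of these SmcHD1 peaks shared 1 call, as at Hoxc10 in mut. The CTCF somKO peaks with scores of 57485 near Gm21182, 49340 at Gm26804 and 9930 in an intron of Pax5, a B-cell transcription factor, each met a wt CTCF peak within 0.223 kb of the SmcHD1 peak.

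**Figure D5:**
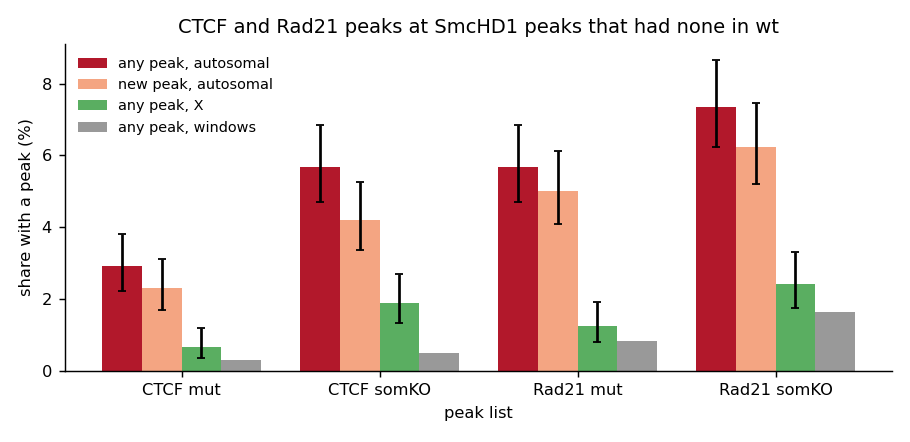
Share of SmcHD1 peaks or windows in percent (vertical axis) that met a CTCF or Rad21 peak in mut or somKO (horizontal axis), for regions without CTCF and Rad21 in wt. Bars give autosomal SmcHD1 peaks with any peak and with a peak new against wt, X peaks, and all 307 bp autosomal windows, and error bars are 95% Wilson intervals for counting error. The autosomal share for Rad21 in somKO was 7.36%, against 2.41% on X and 1.64% of windows.

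The gained peaks were mostly weak in their own lists. The median percentile was 25.4 for mut and 13.3 for somKO in the CTCF lists, and 31.3 and 28.3 in the Rad21 lists. Gains in mut and in somKO met at 72 peaks (4.04%, 3.22 to 5.06) when either antibody counted, at 25 for CTCF and at 45 for Rad21. CTCF and Rad21 appeared together in the same genotype at 40 peaks. On X, gains in mut and in somKO met at 1.37% of peaks (0.895 to 2.08) when either antibody counted. No share of windows was computed for these overlaps, so whether they exceed the sharing of sites between the lists was not tested.

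Gains of Rad21 were more frequent at single-copy peaks than at copied ones. Rad21 appeared at 72 of 494 single-copy peaks in mut (14.6%, 11.7 to 18.0) and at 90 in somKO (18.2%, 15.1 to 21.9), and at 29 (2.26%, 1.57 to 3.22) and 41 (3.19%, 2.36 to 4.30) of 1286 with a copy. CTCF in mut appeared at 5.26% of single-copy peaks (3.62 to 7.60) and 2.02% of those with a copy (1.38 to 2.95), and CTCF in somKO at 6.07% (4.29 to 8.54) and 5.52% (4.40 to 6.91), intervals that overlap. Rad21 was gained in both genotypes at 40 single-copy peaks and at 5 with a copy. Whether reads from copied DNA were placed alike in all lists was not tested. No share of windows was computed for single-copy and copied DNA apart. Single-copy peaks were also more often at gene starts (24.1%, against 12.9%), where 4.64% of windows had Rad21 in mut and 5.74% in somKO.

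The shares also differed by position. At gene starts, Rad21 appeared at 49 of 285 peaks in mut (17.2%, 13.3 to 22.0) and at 46 in somKO (16.1%, 12.3 to 20.9), against 4.64% and 5.74% of windows at gene starts. In distal intergenic DNA it appeared at 28 of 928 (3.02%, 2.10 to 4.33) and 48 (5.17%, 3.92 to 6.79). For CTCF in somKO the intervals overlapped, with 7.00% of distal intergenic peaks (5.53 to 8.83), 19 of these 65 in the array between Hrh1 and Atg7, and 4.21% at gene starts (2.42 to 7.21).

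All 4 lists had a peak at 3 of the 1780 sites. The share of windows with a peak in all 4 was not computed, so these sites are described as examples only. At the Glra1 promoter (chr11:55607220-55608509), CTCF had scores of 302 in mut and 140 in somKO and Rad21 had 220 and 84, and the nearest wt CTCF or Rad21 peak was 33.8 kb away. In an intron of Bcl11a, a zinc finger regulator of globin genes and neurons (chr11:24081349-24082244), they were 671, 355, 799 and 515, all new against wt, and the SmcHD1 score was 40. The remaining site was in the array near Atg7 (chr6:114604277-114605131), with 68, 45, 41 and 57. The scores at both genes were higher than those at the array in every list.

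By the rule for naming genes, the highest SmcHD1 scores among peaks gained in both genotypes included Iqsec3, where Rad21 had scores of 50 in mut and 26 in somKO, and Cacng2, with 44 and 95, neither with CTCF. In an intron of Tmem163, a zinc transporter, CTCF had 61 and 36, and Rad21 45 in somKO. At Gm10722, in the repeat of chromosome 9, Rad21 had 747 in mut and CTCF 15 in somKO. H2-D1 had Rad21 scores of 16 and 71. Dusp28, in contrast, had CTCF (1812) and Rad21 (103) in mut and neither in somKO, and Lrif1 and the peak near Ccnc had Rad21 in somKO and no other gain, with scores of 306 and 265.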

How the data were processed

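ChIP-seq of SmcHD1, CTCF and Rad21 was read from 8 merged peak lists (24 libraries). EGS and formaldehyde were used to fix cells for SmcHD1 and Rad21, and formaldehyde without EGS for CTCF. Per the methods and the submitters' processing notes (Bowtie2, MACS2, mm10), the authors aligned reads to a genome with polymorphic positions masked and called narrow peaks at q < 0.05 on reads of both alleles. The deposited score of each peak was used as the authors gave it and read, from its lowest value of 13, as a transformed q-value. The use of inputs, the tool versions and the handling of reads that align to several places are not given in the sources used here. Libraries of H3K27me3 and of input were not used here.

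Peaks were intersected at 1 bp with Python 3.11.15 and NumPy 2.4.6, on GENCODE M21 genes. Copies were searched with BLASTN 2.17.0, with at most 50 matches per chromosome, the peak's own match included. A promoter was a midpoint within 1 kb of a gene start. With 1 list per group no test was possible, so that counts and shares were set beside all 307 bp windows of the same chromosomes that lacked wt CTCF, wt Rad21 and SmcHD1 mut peaks, the other autosomal SmcHD1 peaks, and X. Routines were tested on simulated data. The members and the 23 gene lists were chosen with earlier results of these data known. Genes were named by fixed rules: those at the 10 highest scores, in the 6 largest clusters, up to 4 per gene list, at the 10 highest scores gained in mut and somKO, and the 10 with most peaks. Other named genes were chosen after their values were seen, including those of the imprinted loci beyond the first 4, the Zfp region, Snhg14 and the highest gained scores. Alternatives were a score of 50, 500 bp distances, wider promoters and clusters, protein-coding genes, 95% identity and shortened lists. Leaving out copied peaks, wt sites called wider or the array between Hrh1 and Atg7 was chosen after seeing the data.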

Additional observations from a re-analysis of the deposited data

How the results depend on the processing

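A score of at least 50 left 812 members, lowered the clustered share to 41.1%, and raised the shares with CTCF in mut to 3.94% and with Rad21 in somKO to 9.85%. The promoter share was 6.40% with protein-coding starts and 23.0% within 2 kb, against 1.16% and 6.87% of windows. The share in no gene was 72.6% with protein-coding genes, against 59.4% of windows. The clustered share was 55.4% with gaps of 25 kb, and the share with a copy was 65.3% at 95% identity. Within 500 bp, CTCF was found at 5.73% in mut and 8.65% in somKO, and Rad21 at 8.99% and 10.4%, against 1.75%, 2.41%, 2.57% and 4.31% of windows. With somKO lists shortened to the wt length, CTCF was at 2.81% and Rad21 at 3.99%, with no share of windows recomputed. Of the alternatives chosen after seeing the data, leaving out copied peaks gave 24.1% at promoters, 41.5% in no gene, 33.6% clustered, CTCF in mut at 5.26%, and Rad21 at 14.6% in mut and 18.2% in somKO. New peaks alone gave 4.21% for CTCF and 6.24% for Rad21 in somKO, and without the array between Hrh1 and Atg7 CTCF in mut was at 2.17%. The other 13 values moved by less than their 95% interval (7 fixed with the design, 6 added). The cause of these shifts was not tested, beyond the narrower or wider sets that each alternative makes. No paired analysis was possible because replicates were merged before peaks were called, and for the same reason no replicate could be left out. Absence from a list is not absence of binding, since depth is unknown.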
